A study of Mus musculus with 12 samples.

Results

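The suppressors of cytokine signalling (SOCS) are the family described here, measured in lung dendritic cells (DC) of mice that had received lipopolysaccharide in the airways. The members are the 8 genes Socs1 to Socs7 and Cish, taken by symbol from the array's platform annotation where a probe set carried exactly 1 symbol. They made up 8 of 18193 genes and 24 of 45037 probe sets. Each gene was represented by its probe set of highest mean over 12 arrays, and its other probe sets served as a check. Of the 8 members, 7 passed the filter on signal, as did 10919 of all genes, and Socs1 did not.

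All animals were male C57BL/6J mice of 8 to 12 weeks. Each had been given 100 ng lipopolysaccharide, a bacterial outer membrane component that triggers inflammation, together with 100 ug of the foreign protein ovalbumin. The dose went into the airways in 50 ul PBS, and lungs were taken 16 h later. Since every group received both agents, the data hold no untreated level of any gene. There were 4 sorted populations with 3 arrays each. The conventional DC (cDC) were the CD103+ cDC and the CD14lo cDC, the latter gated as CD11bhi CD14lo. The monocyte-derived DC (moDC) were the CD14hi moDC, gated as CD11bhi CD14hi, and the Ly6Chi moDC, gated as CD11bhi Ly6Chi and called inf.moDCs in the labels. A biological replicate used 20 mice, cells were flow sorted to a stated purity above 93%, and 50 ng of RNA was amplified and labelled for an Affymetrix mouse array. The labels do not say whether a replicate number marks the same mice in all populations.

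SOCS proteins are feedback inhibitors of cytokine receptors. A cytokine activates Janus kinases (JAK) on its receptor, the kinases phosphorylate STAT transcription factors, and STATs induce genes that include several SOCS members. SOCS proteins then bind the receptor or kinase through an SH2 domain. They block the kinase, compete for docking sites, or recruit an elongin and cullin ubiquitin ligase through the SOCS box. SOCS1 and SOCS3 can inhibit the kinase directly and are known as brakes on interferon and gp130 cytokine signals. CISH, the protein of Cish, and SOCS2 are best known for restraining receptors that signal through STAT5, such as those for GM-CSF and growth hormone. SOCS4 to SOCS7 are tied more to receptor tyrosine kinases and their adaptors.

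Promoters of the members were searched for letters that STAT and interferon regulatory factors (IRF) are known to bind, because STATs and IRFs induce several members. The RefSeq promoter table, build GRCm38.p6, held 4 of the 8 members, Cish, Socs1, Socs3 and Socs4, each from 250 bases before to 50 bases after the transcription start. The STAT motif was TTCNNNGAA, which reads the same on both strands, and the IRF motif was GAAANNGAAA, searched on both strands. Of 32851 promoters of 27025 genes, 8.3% held the STAT motif at least once and 0.457% at least 2 times. The IRF motif occurred at least once in 3.44% and at least 2 times in 0.225%. The Cish promoter held 2 STAT matches, beginning at bases 1 and 12 of the transcript, and Socs3 held 1, beginning at base -154. Socs1 held 2 IRF matches that overlapped, beginning at bases -83 and -77, and Socs4 held neither motif. A match describes the letters only and no binding was measured. The 3 windows are shown 5′ to 3′ on the strand of the gene because they carry the matches, which are in capitals. They lie at chr9:107296579-107296678 on the plus strand (Cish), chr11:117969467-117969566 on the minus strand (Socs3) and chr16:10785587-10785686 on the minus strand (Socs1).
Cish: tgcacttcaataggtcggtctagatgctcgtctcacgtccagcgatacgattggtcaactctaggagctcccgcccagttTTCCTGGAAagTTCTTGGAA
Socs3: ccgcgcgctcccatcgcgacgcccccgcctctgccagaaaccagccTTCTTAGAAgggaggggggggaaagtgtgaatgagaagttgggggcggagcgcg
Socs1: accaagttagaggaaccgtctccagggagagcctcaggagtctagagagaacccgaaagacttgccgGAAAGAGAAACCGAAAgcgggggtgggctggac

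Signals are MAS5 intensities in arbitrary units, scaled by the authors to a 2% trimmed mean of 500.003 on all 12 arrays, with array medians from 72.4 to 108.7. Levels are given as mean ± SD of 3 arrays and are compared between populations for 1 gene, never between genes. Differences are log2 differences ± SE from a limma model over all 12 arrays, on signals raised by a pseudocount of 50.0003, so folds of dim genes are understated. Calls needed an adjusted p under 0.05 (Benjamini-Hochberg, 10919 genes), and the 3 arrays per population limit the precision. The sort genes followed the labels. Itgae, the CD103 gene, averaged 15178 in CD103+ cDC and 855 or less elsewhere, and Cd14 averaged 11669 and 10836 in both moDC populations against 968 and 1537 in both cDC populations. Ly6c1 and Ly6c2 share a probe set with several symbols, so Ly6C was not checked. The Gapdh 3' to 5' signal ratio, a measure of RNA quality, was 3.26 and 3.27 on CD103+ cDC replicates 1 and 3 and between 1.48 and 2.29 on the other 10 arrays. Called differences that involve CD103+ cDC were therefore recomputed without both arrays, and the part of RNA quality in them was not tested. CD103+ cDC is then a single array, assumed to vary like the other populations, whose spread gives the p (6 residual degrees of freedom).

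Across the family, 5 of the 7 tested members differed among the populations in the moderated F test, Socs2, Socs3, Socs5, Socs6 and Cish, where 51.1% of all genes tested were called. The count was 3 without CD103+ cDC replicate 3, without Ly6Chi moDC replicate 1 and without both CD103+ cDC arrays of high Gapdh ratio. Socs2 fell to a low level in Ly6Chi moDC, Cish was highest in CD103+ cDC and lowest in CD14hi moDC, and Socs3 and Socs6 were lowest in CD103+ cDC. Socs4 and Socs7 were not called in the F test, with adjusted p = 0.26 and 0.068.

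**Figure D1:**
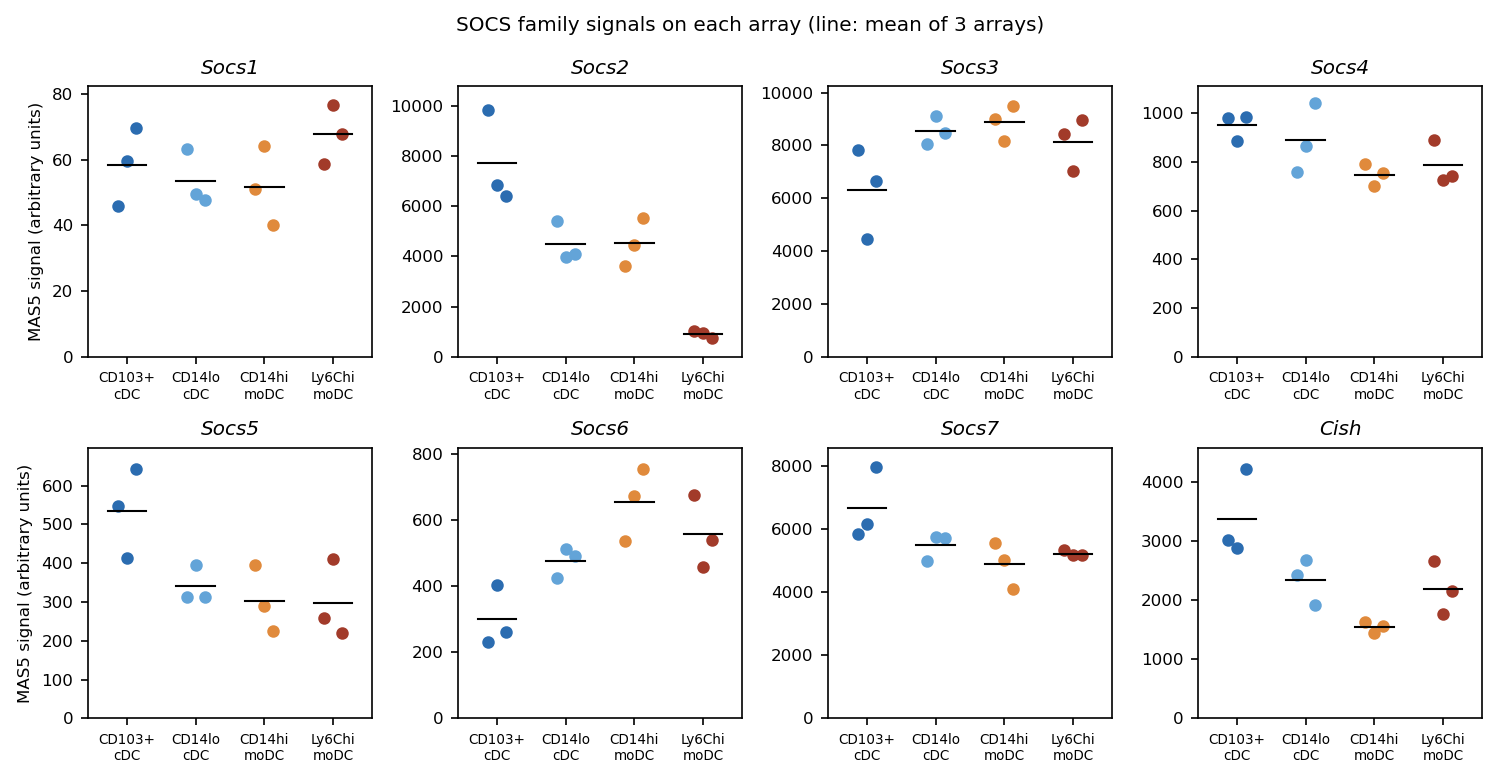
Signal of the 8 SOCS family genes on each of 12 arrays (points, in the order of replicates 1 to 3) with the mean of 3 arrays (lines), MAS5 intensity in arbitrary units on an axis from 0, 1 panel per gene and 1 column per population. Socs2 on Ly6Chi moDC arrays lies between 749 and 1009, below all 9 other arrays, while Socs1 stays between 40.1 and 76.6 on every array.

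Socs2 showed the widest range of the family across populations. Its signals were 9826, 6864 and 6428 for CD103+ cDC, 5422, 3997 and 4103 for CD14lo cDC, 3636, 4476 and 5546 for CD14hi moDC, and 1009, 964 and 749 for Ly6Chi moDC. The CD103+ cDC arrays were all above the others, the CD14lo cDC and CD14hi moDC arrays overlapped, and the Ly6Chi moDC arrays were all below. The means were 7706 ± 1849, 4507 ± 794, 4553 ± 957 and 907 ± 139 in that order (SD, n = 3), with adjusted p = 9.8e-10 in the F test. Socs2 was 4.77-fold lower in Ly6Chi moDC than in CD14hi moDC (log2 difference -2.26 ± 0.19, adjusted p = 6.6e-08) and 4.75-fold lower than in CD14lo cDC (adjusted p = 3.9e-08). Between CD14hi moDC and CD14lo cDC the difference was 0.01 with a 95% interval of -0.38 to 0.40 (adjusted p = 0.99). The 2 moDC populations thus differed from each other in Socs2, while the moDC defined by CD14 was not separated from the cDC of the same CD11b gate. In bulk RNA, fewer cells with the transcript and less transcript per cell cannot be told apart.

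The order of the Socs2 levels had CD103+ cDC at the top. It was 1.69-fold higher there than in CD14lo cDC (log2 difference 0.76 ± 0.19, adjusted p = 0.0049), 1.68-fold higher than in CD14hi moDC (adjusted p = 0.0038) and 8.02-fold higher than in Ly6Chi moDC (3.00 ± 0.19, adjusted p = 1.9e-10). Without CD103+ cDC replicates 1 and 3, the arrays of high Gapdh ratio, the first was 0.62 (adjusted p = 0.11) and the second 0.61 (adjusted p = 0.086), and the third was still called. Socs2 had 5 other probe sets, and all 5 were lower in Ly6Chi moDC than in CD14hi moDC, by 1.84 to 2.19 on the log2 scale, where 10.5% of single probe sets were called lower. All 5 were also lower in Ly6Chi moDC than in CD14lo cDC (12.5% of single probe sets) and higher in CD103+ cDC than in Ly6Chi moDC (21.7%). For CD103+ cDC against CD14lo cDC and against CD14hi moDC, 2 of the 5 were called higher, against 11.6% and 15.2% of single probe sets. Probe sets of 1 gene read the same RNA on the same arrays and are no replicates.

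Other marker lists also had their lowest or highest level in Ly6Chi moDC, where Socs2 was lowest. The conventional DC list (5 of 6 genes measured, all above the filter) had its lowest summed signal in Ly6Chi moDC, 987 to 1358, against 5041 to 7026 in CD14hi moDC, 15928 to 16881 in CD14lo cDC and 18519 to 19303 in CD103+ cDC. The neutrophil list had its highest sum there, 3961 to 4257 against 365 to 2197 on the other arrays, with 3 of 7 measured genes above the filter and Mpo, Ngp and Cxcr2 above the array median on no array. The part of these cells in the Socs2 result was not tested.

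Cish, the other member tied to STAT5, had a different order. Its signals were 3014, 2878 and 4227 for CD103+ cDC, 2419, 2672 and 1913 for CD14lo cDC, 1638, 1446 and 1562 for CD14hi moDC and 2666, 1760.0 and 2150.3 for Ly6Chi moDC. CD103+ cDC arrays were all above, CD14hi moDC arrays all below, and the arrays of CD14lo cDC and Ly6Chi moDC overlapped in between. The means were 3373 ± 743, 2335 ± 387, 1549 ± 96.7 and 2192 ± 454 (SD, n = 3), with adjusted p = 5.1e-04 in the F test. Cish was 2.11-fold higher in CD103+ cDC than in CD14hi moDC (log2 difference 1.08 ± 0.18, adjusted p = 9.1e-05), a call that held under all 23 alternatives. It was 1.53-fold higher in CD103+ cDC than in Ly6Chi moDC (adjusted p = 0.0084) and 1.43-fold higher than in CD14lo cDC (adjusted p = 0.037). CD14hi moDC was 1.48-fold below CD14lo cDC (log2 difference -0.57 ± 0.18, adjusted p = 0.036). The 0.47 rise from CD14hi moDC to Ly6Chi moDC was not called (95% interval 0.10 to 0.84, adjusted p = 0.077), although the arrays did not overlap. Ly6Chi moDC and CD14lo cDC differed by -0.10 (-0.47 to 0.28, adjusted p = 0.76). So the population with the lowest Cish was not the one with the lowest Socs2, and no test compared the 2 genes.

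Several of the smaller Cish differences depended on single arrays. The difference of CD14hi moDC from CD14lo cDC was -0.53 (adjusted p = 0.097) without CD14lo cDC replicate 1 and -0.46 (0.14) without replicate 2. It was -0.61 (0.067), -0.52 (0.12) and -0.57 (0.073) without CD14hi moDC replicates 1, 2 and 3. For CD103+ cDC against CD14lo cDC it was 0.34 (adjusted p = 0.20) without CD103+ cDC replicate 3, and 0.55 (0.061) and 0.38 (0.18) without CD14lo cDC replicates 1 and 3. Against Ly6Chi moDC it was 0.44 (adjusted p = 0.060) without CD103+ cDC replicate 3 and 0.46 (0.056) without Ly6Chi moDC replicate 2. The latter array, with 1760.0, also kept the rise from CD14hi to Ly6Chi moDC from being called. Without both CD103+ cDC arrays of high Gapdh ratio the differences from CD14lo cDC and Ly6Chi moDC were 0.31 (adjusted p = 0.43) and 0.41 (0.20), and with arrays centred at their median 0.52 (0.081) and 0.42 (0.10). Cish has a single probe set, so no other one could be compared.

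Socs3, the inhibitor of gp130 cytokine and G-CSF receptors, was high in all populations and lowest in CD103+ cDC. Signals were 7815, 4461 and 6664 for CD103+ cDC, 8065, 9115 and 8458 for CD14lo cDC, 9014, 8151 and 9511 for CD14hi moDC and 8422, 7044 and 8981 for Ly6Chi moDC. CD103+ cDC arrays lay below every CD14lo cDC and CD14hi moDC array and overlapped with Ly6Chi moDC, and the other 3 populations overlapped with each other. The means were 6313 ± 1704, 8546 ± 530.2, 8892 ± 688 and 8149 ± 997 (SD, n = 3), with adjusted p = 0.041 in the F test. The difference of CD103+ cDC was -0.47 ± 0.16 from CD14lo cDC (1.39-fold, adjusted p = 0.038) and -0.53 ± 0.16 from CD14hi moDC (1.44-fold, adjusted p = 0.017). From Ly6Chi moDC it was -0.40 (95% interval -0.74 to -0.05, adjusted p = 0.055) and not called, although 7 alternatives called it.

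The other 2 Socs3 probe sets gave larger differences. Both were called lower in CD103+ cDC than in each of the other 3 populations, by 0.67 and 1.00 on the log2 scale against CD14lo cDC (13.2% of single probe sets called lower), by 0.62 and 0.91 against CD14hi moDC (18.4%) and by 0.51 and 0.63 against Ly6Chi moDC (21.7%). CD103+ cDC replicate 2, the lowest array, decided both calls of the chosen probe set, with -0.24 (adjusted p = 0.20) and -0.30 (0.095) without it. That array had the lowest Gapdh ratio of its population, 1.68, and with it as the only CD103+ cDC array the differences were -0.93 (adjusted p = 0.0011) and -0.98 (4.3e-04). Both calls were also lost with arrays centred at their median, with -0.47 (adjusted p = 0.15) and -0.38 (0.21). The first was lost without each CD14lo cDC array in turn, with -0.51 (0.058), -0.42 (0.11) and -0.48 (0.084) for replicates 1, 2 and 3, and without Ly6Chi moDC replicate 1 (-0.47, 0.0501). The second was -0.48 (0.056) without CD14hi moDC replicate 3.

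Socs1, the main brake on interferon-gamma signalling and a known product of lipopolysaccharide stimulation, was not measurable as a difference. Its only probe set read 46.0, 59.6 and 69.7 for CD103+ cDC, 63.3, 49.5 and 47.6 for CD14lo cDC, 51.0, 64.2 and 40.1 for CD14hi moDC and 58.8, 76.6 and 67.9 for Ly6Chi moDC. Every value lay below the median of its array, and the populations overlapped in every pair. In the fit without the filter the F test gave adjusted p = 0.80, and the widest difference, Ly6Chi moDC over CD14hi moDC, was 0.21 with a 95% interval of -0.19 to 0.62. Signals this low give no order of levels and do not show that Socs1 was absent.

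Socs6, which is known to bind the receptor tyrosine kinases KIT and FLT3, was lowest in CD103+ cDC, where Cish was highest. Signals were 231, 404 and 262 for CD103+ cDC, 425, 513 and 489.5 for CD14lo cDC, 537, 672 and 754 for CD14hi moDC and 675, 459 and 538 for Ly6Chi moDC. CD103+ cDC arrays were all below the rest, CD14hi moDC arrays were all above CD14lo cDC, and Ly6Chi moDC overlapped with both. The means were 299 ± 92.4, 476 ± 45.4, 654 ± 109.5 and 557 ± 109 (SD, n = 3), with adjusted p = 0.0020 in the F test. Socs6 was 2.04-fold lower in CD103+ cDC than in CD14hi moDC (log2 difference -1.03 ± 0.21, adjusted p = 5.9e-04). It was 1.76-fold lower than in Ly6Chi moDC (adjusted p = 0.0030) and 1.53-fold lower than in CD14lo cDC (-0.62 ± 0.21, adjusted p = 0.030). CD14hi moDC exceeded CD14lo cDC by 0.41, which was not called (95% interval -0.02 to 0.84, adjusted p = 0.21).

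Both other Socs6 probe sets were called lower in CD103+ cDC than in CD14hi moDC, by 0.95 and 1.45 on the log2 scale. The same held against Ly6Chi moDC, by 1.31 and 1.44, and 1 of 2 was called lower than in CD14lo cDC. Of all single probe sets, 18.4%, 21.7% and 13.2% were called lower in these pairs. The calls of the chosen probe set depended on the 2 CD103+ cDC arrays of high Gapdh ratio. Without both, the differences from CD14hi moDC, Ly6Chi moDC and CD14lo cDC were -0.62 (adjusted p = 0.10), -0.40 (0.26) and -0.21 (0.68). The difference from CD14lo cDC was also lost without CD103+ cDC replicate 1 (-0.48, adjusted p = 0.13) or 3 (-0.55, 0.096) and without CD14lo cDC replicate 2 (-0.57, 0.084) or 3 (-0.60, 0.082).

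Socs5, an inhibitor of epidermal growth factor and interleukin-4 receptor signals, was highest in CD103+ cDC by its brighter probe set only. Signals were 549, 413 and 644 for CD103+ cDC, 314, 396 and 313 for CD14lo cDC, 395, 289.6 and 225 for CD14hi moDC and 259, 411 and 221 for Ly6Chi moDC. CD103+ cDC arrays lay above all others and the other 3 populations overlapped. The means were 535 ± 116, 341 ± 47.9, 303 ± 85.4 and 297 ± 100.4 (SD, n = 3), with adjusted p = 0.029 in the F test. The gene was 1.67-fold higher in CD103+ cDC than in CD14hi moDC (log2 difference 0.74 ± 0.23, adjusted p = 0.018) and 1.71-fold higher than in Ly6Chi moDC (0.77 ± 0.23, adjusted p = 0.010). The 0.57 over CD14lo cDC was not called (95% interval 0.08 to 1.06, adjusted p = 0.077).

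The second Socs5 probe set did not show these differences. It gave 0.08 (adjusted p = 0.82) and -0.0027 (0.99) for CD103+ cDC against CD14hi moDC and Ly6Chi moDC, with means of 208 ± 59.1, 243 ± 45.7, 189 ± 11.0 and 208 ± 61.3 in the usual order (SD, n = 3). With the chosen probe set the first difference was 0.60 (adjusted p = 0.085) without CD103+ cDC replicate 3 and 0.57 (0.091) without CD14hi moDC replicate 3. The second was 0.64 (0.054) without CD103+ cDC replicate 3 and 0.61 (0.059) without Ly6Chi moDC replicate 3. Without both CD103+ cDC arrays of high Gapdh ratio they were 0.42 (adjusted p = 0.41) and 0.45 (0.32).

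Socs7, which binds adaptor and insulin receptor substrate proteins, read 5839, 6159 and 7989 for CD103+ cDC, 5006, 5747 and 5709 for CD14lo cDC, 5567, 5027 and 4107 for CD14hi moDC and 5349.9, 5166 and 5169.7 for Ly6Chi moDC. CD103+ cDC arrays lay above all others, and the other populations overlapped. The only call was a 1.35-fold higher level in CD103+ cDC than in CD14hi moDC (log2 difference 0.44 ± 0.14, adjusted p = 0.020). The means were 6662 ± 1160.3, 5487 ± 417, 4900.1 ± 738 and 5229 ± 105 (SD, n = 3). Leaving out CD103+ cDC replicate 3 ended the call (0.30, adjusted p = 0.12), as did leaving out CD14hi moDC replicate 3 (0.32, 0.11) or both arrays of high Gapdh ratio (0.34, 0.20). Quantile normalization (0.31, 0.080) and the mean of the probe sets (0.17, 0.35) also ended it. None of the other 3 probe sets was called, with differences of -0.26 to 0.43.

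Socs4, which acts on the epidermal growth factor receptor, was called in none of the 7 comparisons by limma, and at an unadjusted p under 0.05 only in the comparison of cDC with moDC. Signals were 981, 884 and 984 for CD103+ cDC, 759, 863 and 1041 for CD14lo cDC, 789, 699 and 754 for CD14hi moDC and 891, 724 and 743 for Ly6Chi moDC. The arrays overlapped except between CD103+ cDC and CD14hi moDC. That pair had the widest difference, 0.33 with a 95% interval up to 0.66 (adjusted p = 0.11), and 0 of the other 3 probe sets were called.

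**Figure D2:**
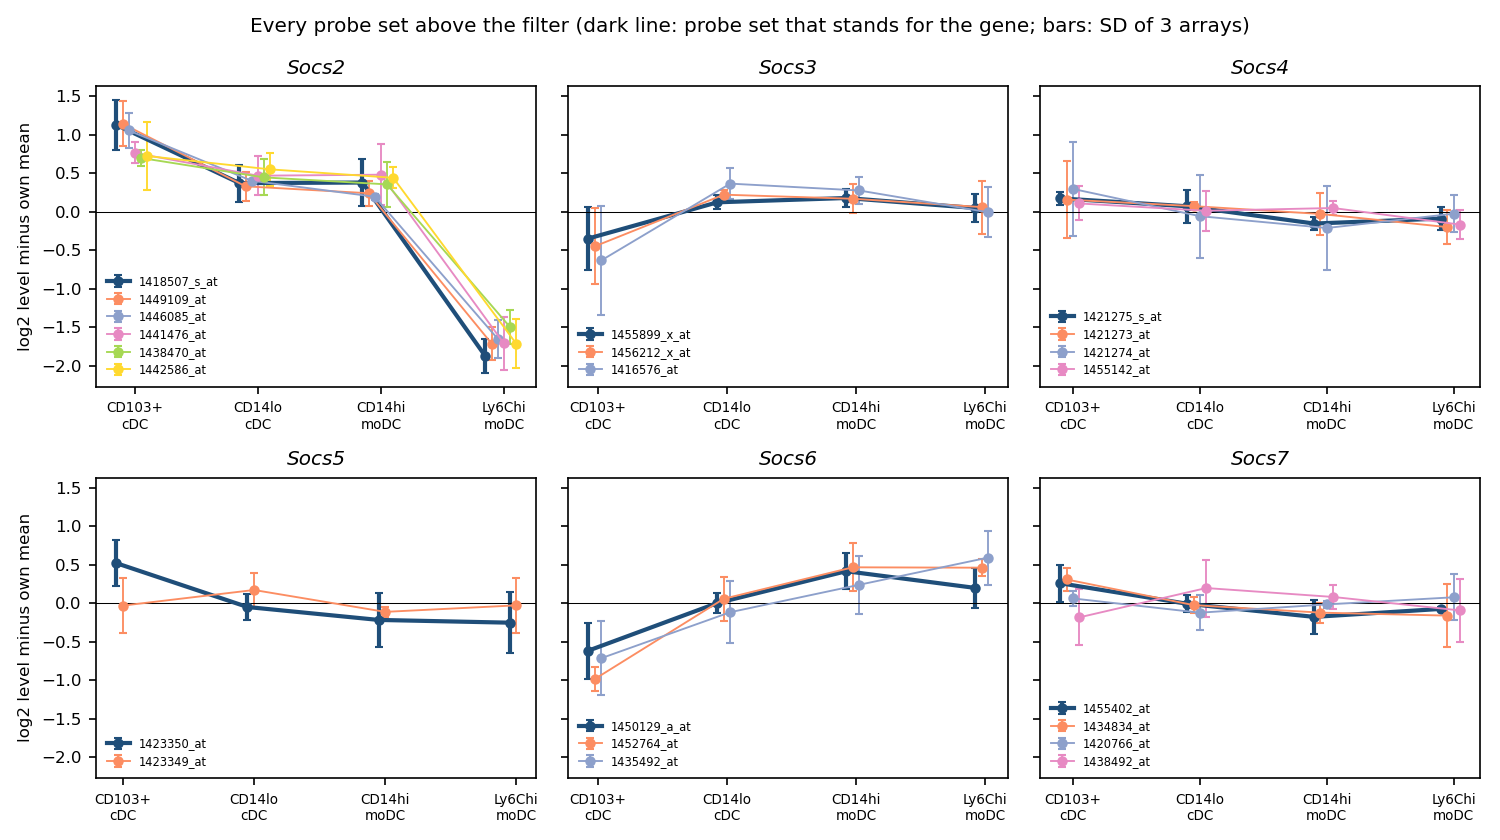
Log2 level minus the probe set's own mean over 12 arrays, by population, for every probe set above the filter of Socs2 to Socs7, with the mean and SD of 3 arrays and a dark line for the probe set that stands for the gene. All 6 Socs2 probe sets lie lowest in Ly6Chi moDC. The 2 Socs5 probe sets part in CD103+ cDC, which exceeds CD14hi moDC by 0.74 with the brighter one and 0.08 with the dimmer one.

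The study's labels divide the populations by origin, so the mean of both cDC populations was compared with that of both moDC populations. In cDC, Socs2 was 2.82-fold higher (log2 difference 1.50 ± 0.13, adjusted p = 3.0e-08), Cish 1.50-fold higher (0.59 ± 0.13, adjusted p = 9.1e-04) and Socs5 1.39-fold higher (0.47 ± 0.16, adjusted p = 0.028), while Socs6 was 1.53-fold lower (-0.61 ± 0.15, adjusted p = 0.0021). That made 3 of 7 members higher and 1 lower, against 20.8% and 20.7% of all genes. The family's median difference was 0.25, and that of all genes tested 0.00. For Socs2 this contrast averaged over CD14lo cDC and CD14hi moDC, which were not separated from each other. For Socs5 neither moDC population was called against CD14lo cDC alone (adjusted p = 0.71 and 0.60). The same held for Socs6 (0.21 for CD14hi moDC and 0.56 for Ly6Chi moDC). Cish was not called in Ly6Chi moDC against CD14lo cDC (0.76). Socs5 was lost on leaving out any of 7 single arrays, with 0.46 (adjusted p = 0.052) and 0.40 (0.074) without CD103+ cDC replicates 1 and 3, 0.42 (0.066) without CD14lo cDC replicate 2, 0.46 (0.051) and 0.39 (0.079) without CD14hi moDC replicates 2 and 3, and 0.44 (0.064) and 0.39 (0.079) without Ly6Chi moDC replicates 1 and 3. Without both CD103+ cDC arrays of high Gapdh ratio Socs5 was 0.31 (0.26) and Socs6 -0.41 (0.058).

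The pairs of populations share arrays, so their results are not independent. CD103+ cDC against CD14hi moDC called the most members, 4 of 7 higher (Socs2, Socs5, Socs7, Cish) and 2 lower (Socs3, Socs6), against 16.9% and 20.2% of all genes. The count of 6 was 3 without CD14hi moDC replicate 3 and 2, Socs3 and Cish, without both arrays of high Gapdh ratio. CD103+ cDC against Ly6Chi moDC called 3 higher (Socs2, Socs5, Cish) and 1 lower (Socs6), against 23.2% and 24.3%, and 2 in all without CD103+ cDC replicate 3 or without both arrays of high Gapdh ratio. CD103+ cDC against CD14lo cDC called 2 higher (Socs2, Cish) and 2 lower (Socs3, Socs6), against 13.4% and 15.3%. That count of 4 was 2 without CD103+ cDC replicate 3 or CD14lo cDC replicate 1 or 2, and 1 without CD14lo cDC replicate 3 or, being Socs3, without both arrays of high Gapdh ratio. The 3 other pairs called 1 member each. Cish was the member lower in CD14hi moDC than in CD14lo cDC, where 9.22% of genes were called higher and 6.95% lower, and the count was 0 without CD14lo cDC replicate 1 or 2 or any CD14hi moDC array. Socs2 was the member lower in Ly6Chi moDC than in CD14hi moDC (6.81% higher, 11.4% lower) and than in CD14lo cDC (11.2% higher, 14.0% lower). With Ly6Chi moDC replicate 2 left out, Cish joined it in the former pair.

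**Figure D3:**
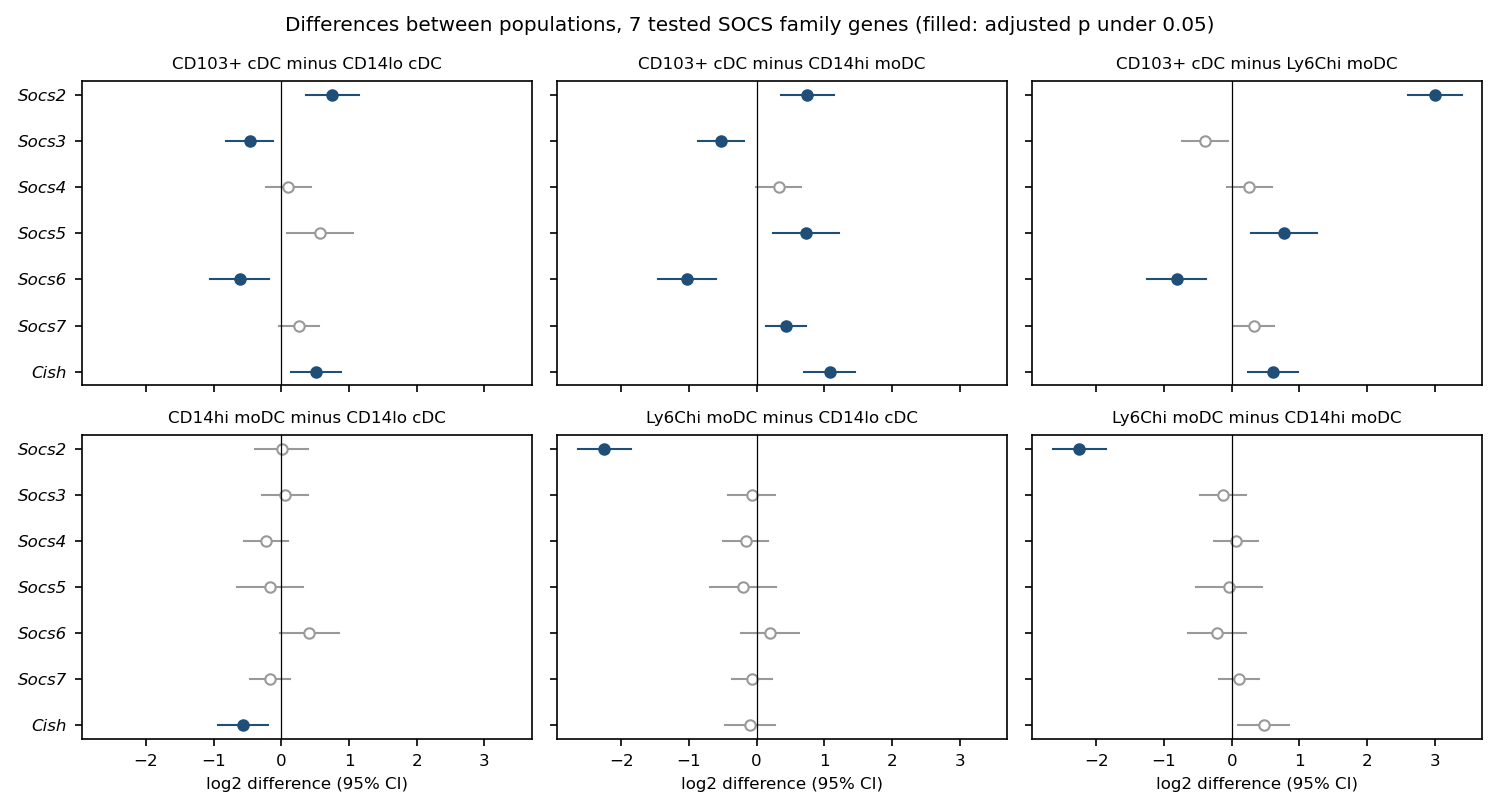
Log2 difference with its 95% interval for the 7 tested SOCS family genes in the 6 pairs of populations, filled where the limma adjusted p is under 0.05. Ly6Chi moDC differs from CD14hi moDC and from CD14lo cDC in Socs2 alone, and CD103+ cDC from CD14hi moDC in 6 genes.

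Scaling mattered for the direction of counts over all genes and for some counts of members, but not for the sign of members already called. With arrays centred at their median instead of the authors' trimmed mean, the median difference of all genes moved to 0.29 in Ly6Chi moDC minus CD14hi moDC, and the share of called genes that were higher from 37.4% to 77.0%. The share moved from 57.0% to 42.9% in CD14hi moDC minus CD14lo cDC (shift -0.14), from 45.6% to 57.8% in CD103+ cDC minus CD14hi moDC (0.12), from 48.8% to 36.0% in CD103+ cDC minus Ly6Chi moDC (-0.19) and from 44.5% to 63.7% in Ly6Chi moDC minus CD14lo cDC (0.16). Median centring also moved the members called higher and lower from 3 and 1 to 2 and 2 in CD103+ cDC minus Ly6Chi moDC. In Ly6Chi moDC minus CD14hi moDC they moved from 0 and 1 to 1 and 1. No called member changed sign under either scaling alternative.

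The genes upstream of the family were described from lists, with the same comparison of cDC with moDC. The JAK kinases, which SOCS proteins inhibit, were higher in cDC for 3 of 4 genes, Jak2 by 2.35-fold (adjusted p = 7.4e-08), Tyk2 by 1.96-fold (1.9e-06) and Jak3 by 1.51-fold (0.0086), with a list median of 0.79 against 0.00 for all genes. Over all genes 20.8% were higher and 20.7% lower in this comparison, against which the counts of this and the following lists are set. Jak2, the kinase of GM-CSF and growth hormone receptors, averaged 10008 ± 929.6 for CD103+ cDC, 7339.7 ± 268 for CD14lo cDC, 4367 ± 755 for CD14hi moDC and 3087 ± 752 for Ly6Chi moDC (SD, n = 3). Jak1 averaged 2386 ± 467, 2753 ± 107, 2752 ± 42.3 and 2802 ± 174 and was not called. The same 3 kinases were lower in CD14hi moDC than in CD14lo cDC, by 1.69-fold for Jak2 (adjusted p = 0.0030), 1.67-fold for Jak3 (0.045) and 1.46-fold for Tyk2 (0.029). In that pair 6.95% of all genes were called lower. Without both CD103+ cDC arrays of high Gapdh ratio the log2 difference of Jak3 in the origin comparison was 0.50 and not called. The pair of CD14hi moDC and CD14lo cDC holds no CD103+ cDC array. Jak3 stayed at -0.74 in that pair, and its call was lost only because the spread is estimated over all arrays.

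Of the 6 STAT genes tested, 5 were higher in cDC and none lower, with a list median of 0.64. Stat4 was 5.37-fold higher (adjusted p = 5.0e-12), Stat5a 2.17-fold (9.2e-09), Stat3 1.56-fold (7.9e-06) and Stat5b 1.55-fold (1.2e-04). Stat5a, a main inducer of Cish and Socs2, averaged 8031 ± 848 for CD103+ cDC, 5269 ± 545 for CD14lo cDC, 4131 ± 394 for CD14hi moDC and 2114 ± 15.5 for Ly6Chi moDC. Stat5b averaged 1256 ± 187, 949.6 ± 92.9, 641 ± 17.1 and 730.0 ± 75.8 (SD, n = 3). Its lowest mean was in CD14hi moDC, as that of Cish was, but neither gene was called between the moDC populations. Stat4 and Stat5b were also lower in CD14hi moDC than in CD14lo cDC, by 1.46-fold (adjusted p = 0.019) and 1.44-fold (0.024). The number of STAT calls was 4 with arrays centred at their median and 4 without both arrays of high Gapdh ratio, where Stat6 was 0.16 (adjusted p = 0.21).

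Receptors were listed by pathway. Of 7 tested STAT5-activating receptors, 4 were higher in cDC and 0 lower, with a list median of 0.43. Il2ra, the interleukin-2 receptor alpha chain and itself a STAT5 target, was 4.24-fold higher (adjusted p = 2.9e-09), Il7r 1.40-fold (0.0045), Csf2rb2 1.38-fold (0.0029) and Csf2rb, the shared GM-CSF receptor chain, 1.35-fold (0.0014). Il2ra averaged 4493 ± 762 for CD103+ cDC, 2673 ± 795 for CD14lo cDC, 2889 ± 238 for CD14hi moDC and 184 ± 69.7 for Ly6Chi moDC (SD, n = 3), so that Ly6Chi moDC was 12.9-fold below CD14hi moDC (adjusted p = 1.0e-09). Il5ra, Il2rb, Epor and Ghr on this list did not pass the filter, and Il2rg and Prlr were not analysed here. Csf2rb2 was 0.31 on the log2 scale (adjusted p = 0.070) without both CD103+ cDC arrays of high Gapdh ratio.

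SOCS3 restrains signals of the gp130 family and G-CSF receptors. Of 5 tested, 3 were lower in cDC, Csf3r by 5.51-fold (adjusted p = 1.4e-09), Lifr by 2.20-fold (5.6e-06) and Il6ra by 1.50-fold (3.9e-05), and Il6st, the gp130 chain itself, was 1.49-fold higher (0.0041). The contrast of cDC with moDC did not hold in each pair. In CD14hi moDC against CD14lo cDC, only Lifr, 1.59-fold higher (adjusted p = 0.036), and Il6st, 1.85-fold lower (0.0061), were called. Against CD14hi moDC, none of the 5 was called higher in CD103+ cDC, Il6st included. Csf3r, also on the neutrophil marker list, averaged 34.1 ± 23.1 in CD103+ cDC and 1533 ± 290.2 in Ly6Chi moDC (SD, n = 3). All 5 were lower in CD103+ cDC than in CD14lo cDC, where 15.3% of all genes and Socs3 were also called lower. There Il6ra fell from 4863 ± 565 to 2144 ± 27.8 (2.23-fold, adjusted p = 1.8e-06) and Il6st from 3457 ± 489.9 to 1733 ± 166 (1.96-fold, 0.0018). Of the 5, 4 were still called without both CD103+ cDC arrays of high Gapdh ratio, and Il6st was -0.89 (adjusted p = 0.061). The list median in that pair was -1.16, and that of all genes -0.03.

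Among 4 interferon receptor chains, the targets of SOCS1 feedback, Ifnar2 was 1.44-fold (adjusted p = 1.6e-04) and Ifngr2 1.22-fold (0.014) lower in cDC, with a list median of -0.24. Ifngr1 was 1.43-fold lower in CD14hi moDC than in CD14lo cDC (adjusted p = 0.042). Of 2 interleukin-10 receptor chains, Il10rb was 1.81-fold lower in cDC (adjusted p = 6.0e-06) and 1.63-fold higher in CD14hi moDC than in CD14lo cDC (0.0042). The latter call was lost with arrays centred at their median. Of 2 STAT6-activating receptors, Il4ra and Il13ra1, 0 were called by limma in cDC minus moDC, also at an unadjusted p under 0.05.

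**Figure D4:**
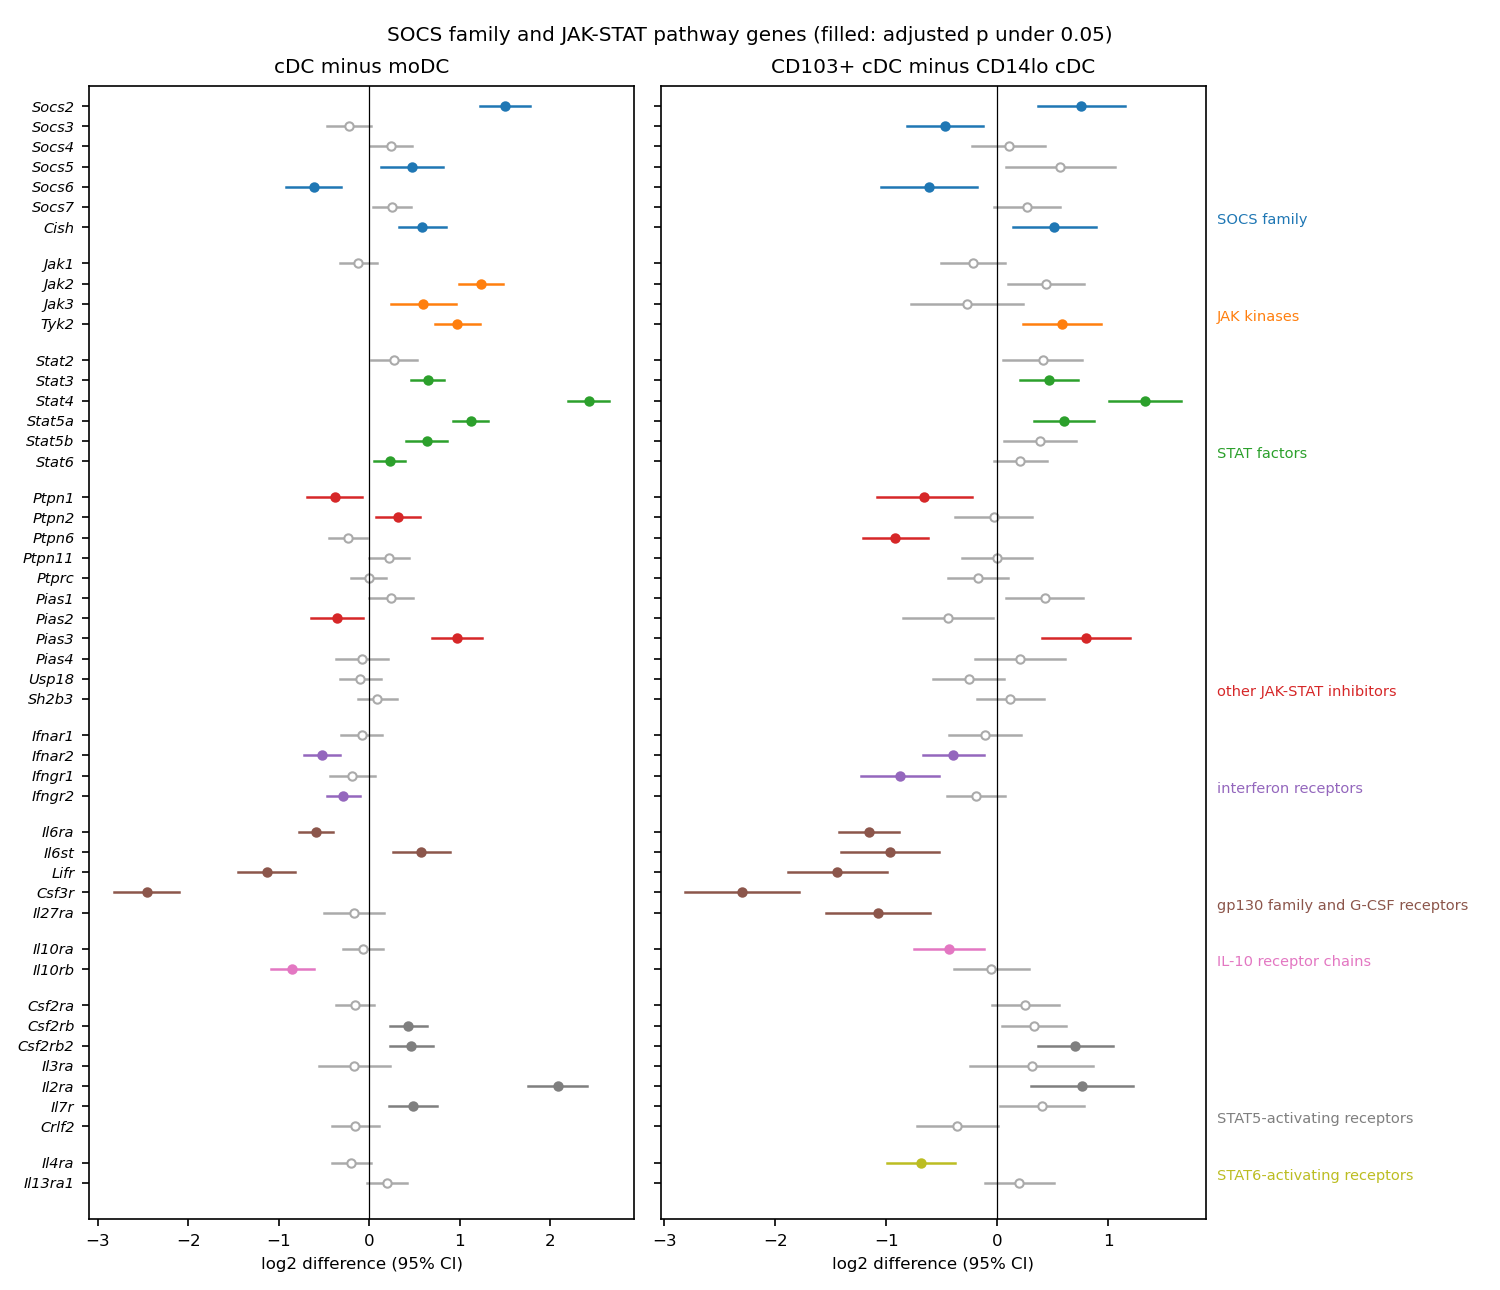
Log2 difference with its 95% interval for tested genes of the SOCS family, JAK, STAT, inhibitor and receptor lists, in cDC minus moDC (left) and CD103+ cDC minus CD14lo cDC (right), filled and coloured by list where the limma adjusted p is under 0.05. All 5 gp130 family and G-CSF receptors lie to the left of 0 in the right panel, while 3 of 4 JAK kinases and 5 of 6 STAT factors lie to the right in the left panel as called genes.

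Cytokines that drive these receptors differed in both directions. Of 11 tested ligand genes, 4 were higher in cDC and 6 lower, with a list median of -1.35. Il12b was 6.53-fold higher in cDC (adjusted p = 3.9e-08), and Il10, Osm and Csf1 were 5.65-fold (3.7e-08), 3.98-fold (1.5e-08) and 3.36-fold (2.2e-07) lower. Osm, oncostatin M and a STAT5 target, averaged 385 ± 132 for CD103+ cDC, 2072 ± 115 for CD14lo cDC, 2012 ± 667 for CD14hi moDC and 7125 ± 987 for Ly6Chi moDC (SD, n = 3). Of the 4 higher ligands, Clcf1 was not called without both CD103+ cDC arrays of high Gapdh ratio (0.31, adjusted p = 0.46). The order of Osm ran opposite to Socs2 at both ends, with the same middle pair not separated. In CD14hi moDC against CD14lo cDC, 5 ligands were higher and 0 lower (9.22% and 6.95% of all genes), among them Il10 by 5.26-fold (adjusted p = 2.4e-05), Il6 by 3.75-fold (1.0e-03), Csf1 by 2.34-fold (0.0019) and Lif by 2.02-fold (0.023). Of the 22 listed ligands, 10 did not pass the filter, Csf2, Csf3, Ifnb1 and Ifng among them.

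Targets of STAT5, STAT3 and STAT6 did not move as blocks. Of 6 STAT5 targets, 3 were higher in cDC, Il2ra, Bcl6 by 1.86-fold (adjusted p = 5.1e-06) and Ccnd2 by 1.60-fold (2.1e-05), and Osm was lower, with a list median of 0.42. Of 9 STAT3 targets, Etv3 was 1.94-fold (2.4e-08) and Sbno2 1.39-fold (0.0013) higher, and Il1rn 4.83-fold (1.3e-07) and Nfil3 1.44-fold (0.0031) lower, with a list median of -0.20. Of 7 STAT6 targets, 2 were higher and 4 lower, with a list median of -1.88. Arg1, Ccl24 and Mrc1, genes of alternatively activated macrophages, were 8.95-fold (5.0e-10), 8.05-fold (9.6e-11) and 7.14-fold (9.0e-11) lower, and the chemokine gene Ccl22 was 5.01-fold (2.7e-09) higher.

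Receptors and adaptors that SOCS proteins are known to bind included the growth factor receptors of SOCS6. Flt3, a cytokine receptor that cDC depend on, was 11.6-fold (adjusted p = 4.6e-13) and Kit 8.18-fold (9.4e-11) higher in cDC, and Irs2 was 1.37-fold (0.033) lower. Flt3 averaged 6749 ± 891, 2513 ± 246, 753 ± 88.4 and 113 ± 34.3, and Kit 1457 ± 136, 582 ± 161, 87.3 ± 40.4 and 55.7 ± 24.9, in the usual order from CD103+ cDC to Ly6Chi moDC (SD, n = 3). Both were highest in CD103+ cDC, where Socs6 was lowest. The list median over 5 tested genes was 0.07. Irs2 was -0.40 (adjusted p = 0.16) without both CD103+ cDC arrays of high Gapdh ratio.

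The SOCS box recruits a ubiquitin ligase. Of 7 partner genes, Arih2 was 1.44-fold (adjusted p = 0.0045) and Eloc, elongin C, 1.21-fold (0.030) higher in cDC, with a list median of 0.06, and without both CD103+ cDC arrays of high Gapdh ratio they were 0.28 (adjusted p = 0.13) and 0.20 (0.21). Of 15 other SOCS box genes tested, 3 were higher and 3 lower, near the 20.8% and 20.7% of all genes, with a list median of 0.07. Spsb4 was 4.59-fold lower in cDC (adjusted p = 1.2e-08), Spsb1, an adaptor for inducible nitric oxide synthase, 1.77-fold higher (3.1e-04), Asb2 1.60-fold higher (0.0017) and Asb13 1.44-fold higher (0.023). Without both arrays Asb13 (0.25, adjusted p = 0.35) and Rab40c (-0.29, 0.20) of these 6 were not called.

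Other inhibitors of the same pathway showed no shared direction. Of 11 JAK-STAT inhibitors outside the family, 2 were higher in cDC, Pias3 by 1.96-fold (adjusted p = 8.5e-06) and the phosphatase gene Ptpn2 by 1.25-fold (0.036), and 2 lower, Ptpn1 by 1.30-fold (0.040) and Pias2 by 1.28-fold (0.043). The list median was -0.01, and 1 gene was higher and 0 lower with arrays centred at their median. Ptpn2 was 0.21 (adjusted p = 0.26) and Pias2 -0.39 (0.094) without both CD103+ cDC arrays of high Gapdh ratio. Ptpn6, the SHP-1 phosphatase, was 1.41-fold lower in CD14hi moDC than in CD14lo cDC (adjusted p = 0.019). Of 8 other feedback inhibitors of lipopolysaccharide signals, Sigirr was 4.02-fold higher in cDC (1.8e-08), and Irak3, Atf3 and Tollip were 3.93-fold (8.1e-10), 1.52-fold (1.8e-05) and 1.26-fold (0.015) lower, with a list median of -0.13. Tollip was -0.23 (adjusted p = 0.15) without both arrays.

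The genes whose log2 signals followed each called member most closely were taken by Pearson's r over 12 arrays, a description in which 4 population means carry much of the likeness. Socs2 was followed by Adcy6 (r = 0.991), Adam23 (0.987) and Lsp1 (0.984). Adcy6, an adenylyl cyclase gene, averaged 8183 ± 2468 for CD103+ cDC, 2254 ± 620.3 for CD14lo cDC, 1930.3 ± 376 for CD14hi moDC and 37.5 ± 8.63 for Ly6Chi moDC (SD, n = 3), with the same middle pair close together. Cish was followed by Slc25a20 (0.925), Tmem263 (0.920) and Fmr1 (0.912), Socs6 by Dennd4c (0.946), Fam136a (0.930) and Pwp2 (0.928), and Socs5 by Ralgapa1 (0.939), Mtcp1 (0.925) and Nudt16l1 (0.905). The closest genes to Socs3 were Ncald (0.896), Cnn3 (0.894) and Nfkbiz (0.879), the last a known lipopolysaccharide-induced gene. Ncald was dim, with population means of 36.3 to 86.6 against array medians of 72.4 to 108.7.

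Markers of other cell types moved with some members. The lung epithelium list, with 5 of 8 genes above the filter, summed to 6904 to 11422 in CD103+ cDC and 1876 to 4872 on the other 9 arrays. Scgb1a1 and Epcam made up most of the sum in CD103+ cDC, with means of 4857 and 2526. In that population Cish, Socs5 and Socs7 were highest and Socs3 and Socs6 lowest. The natural killer cell list summed to 7071 to 8251 in CD14lo cDC against 1465 to 3760 elsewhere. Ncr1, Nkg7, Eomes and Gzmb were above the array median on no array. Klrd1 made up most of the sum in CD14lo cDC, with a mean of 6418. Prf1, the other gene above the filter, averaged 1159 there and 811 to 1041 elsewhere. The fibroblast list was highest in CD14hi moDC, at 4734 to 5590 against 1406 to 4524, where Cish was lowest. Most of that sum was a single gene, Mgp, with a mean of 4067. Of 7 mast cell and basophil genes, 0 passed the filter, and of 6 measured T cell genes only Cd4 did, with Cd3g, Cd8b1 and Cd28 above the median on no array. The part of other cells in the results was not tested.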

How the data were processed

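RNA of 12 sorted DC samples was measured on 1 mouse array each. Linear intensity values had been made with MAS5 by the authors, per the submitters' processing notes. The sources used here give neither its version nor detection calls, and a filter on signal took their place. Of 45101 probe sets, 64 controls were left out. The annotation gave 1 symbol for 34945, several for 932 and none for 9160. A gene was tested where its brightest probe set exceeded the array median on at least 3 of 12 arrays.

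The log2 of signal plus 50.0003 (10% of the trimmed mean) was fitted with limma 3.58.1 (lmFit, eBayes with trend) in R 4.3.3, with a mean per population and 8 residual degrees of freedom. Two-sided tests were adjusted by Benjamini-Hochberg in each of 7 comparisons, and all adjusted p come from limma. Single probe sets were fitted the same way over 21138. The script was tested on simulated data. Figures used matplotlib 3.10.9.

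Members and gene lists were chosen with earlier results of these data known. All members were named, and up to 4 called genes per list with the largest differences in cDC minus moDC and in CD14hi moDC minus CD14lo cDC. For some lists values of all genes, and in other pairs values of named genes, were added after they were seen. The main fit had no replicate block, since the labels do not say that a replicate number marks shared animals. Alternatives were other scalings, pseudocounts, filters, probe set rules, fits and arrays left out.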

Additional observations from a re-analysis of the deposited data

How the results depend on the processing

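The 21 called differences of single members were recomputed under alternatives, which gave 524 values. Of these 447 kept the direction and the call, 75 lost the call and 2 reversed. The reversed values came from other probe sets, the dimmer Socs5 one in CD103+ cDC minus Ly6Chi moDC (-0.0027) and the dimmest Socs7 one in CD103+ cDC minus CD14hi moDC (-0.26), and the cause was not tested. The calls of Socs2 for Ly6Chi moDC against each other population, of Socs2 and Cish for cDC minus moDC, and of Cish for CD103+ cDC minus CD14hi moDC were kept under all alternatives run.

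Members called in the F test numbered 5, but 3 without a filter, 3 without both CD103+ cDC arrays of high Gapdh ratio (an alternative chosen after seeing the data) and 3 to 5 on leaving out 1 array. In CD14hi moDC minus CD14lo cDC the count of 1 became 0 without a filter and 0 without the intensity trend, and 0 to 1 with 1 array left out. In CD103+ cDC minus CD14lo cDC the count of 4 became 2 with median centring, 1 without a filter, 2 without the trend, 1 with only the arrays compared, 1 without both arrays, and 1 to 4 with 1 array left out. In Ly6Chi moDC minus CD14hi moDC the count of 1 became 2 with median centring and 2 with only the arrays compared, and 1 to 2 with 1 array left out. In CD103+ cDC minus CD14hi moDC the count of 6 became 2 without both arrays and 3 to 6 with 1 array left out, and in CD103+ cDC minus Ly6Chi moDC the count of 4 became 2 and 2 to 6. Without a filter more genes are tested, and with fewer arrays less of the spread is known. Otherwise the cause was not tested.

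Calls of single members also ended without a filter, without the trend or with only the arrays compared, with adjusted p of 0.053 to 0.083. These were Socs3, Socs6 and Cish in CD103+ cDC minus CD14lo cDC, Cish in CD14hi moDC minus CD14lo cDC, Socs5 in cDC minus moDC and Socs7 in CD103+ cDC minus CD14hi moDC, each under 1 to 3 of these settings.

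Over all genes, calls went from 3135 to 1732 in CD103+ cDC minus CD14lo cDC and from 4061 to 2436 in CD103+ cDC minus CD14hi moDC without both arrays, and from 1990 to 3349 in Ly6Chi moDC minus CD14hi moDC with median centring. With replicate number as a block (replicate block), 5 members and 5650 genes were called in the F test, and in CD103+ cDC minus Ly6Chi moDC 5 members in place of 4. The block ended no member's call. The labels do not say whether a replicate number marks shared animals. Deviations from the population means correlated at -0.107 to 0.237 over 18 pairs of the same number, 8 of them over 0.1, and at -0.27 to 0.23 over 36 pairs of different numbers, 4 of them over 0.1. When correlations were averaged over the arrays of each number, 8 of the 12 arrays correlated best with their own number. That is a hint from the data and not the design. Low signal limits Socs1, for which no alternative gives a measurable level.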
